A study of Rattus norvegicus with 9 samples.

Results

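The 2 mature arms of rat miR-126a, rno-miR-126a-3p and rno-miR-126a-5p, were followed across retinas of a retinopathy model. They were chosen by name, as 2 of the 465 mature miRNAs listed in the count tables. The study sequenced small RNA from dissected retinas of wild type Sprague Dawley rats in 3 groups of 3 libraries. These were OIR P29 (oxygen-induced retinopathy, postnatal day 29), OIR P14 (oxygen-induced retinopathy, postnatal day 14) and sham P14 (control animals, postnatal day 14). Oxygen-induced retinopathy models retinopathy of prematurity: altered oxygen after birth stops the growth of retinal vessels, and abnormal vessel growth follows. The sources used here give neither the oxygen schedule nor what the sham animals received, nor whether animals were pooled for a library. P-values therefore measure the spread between these libraries.

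miR-126 is made from an intron of Egfl7, a gene of endothelial cells, the cells that line blood vessels. It is abundant in endothelium and also present in platelets and blood progenitor cells. In mice, zebrafish and human cells, the 3p arm represses SPRED1 and PIK3R2, which restrain signalling from vascular endothelial growth factor, and loss of the miRNA in mice or zebrafish causes leaky and broken vessels. The 5p arm has been shown in mice to repress Dlk1 and so to permit endothelial proliferation.

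Both arms had a sequence in the RefSeq table for the GRCr8 assembly, matched by the name of the mature miRNA. The table's gene symbols run the other way, with both miR-126a arms under Mir126b and miR-126b under Mir126a, so the positions given here follow the mature names. They lie on the plus strand of chromosome 3, within the span of Egfl7, miR-126a-5p at chr3:29813182-29813202 and miR-126a-3p at chr3:29813219-29813240. Which build the authors used is unstated. The mature sequences are shown because every count below belongs to them, with the seed (bases 2 to 8, which pairs with target RNAs) in capitals.
miR-126a-3p: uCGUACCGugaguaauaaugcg
miR-126a-5p: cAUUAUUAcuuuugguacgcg
The 2 arms do not share a seed, and 0 of the other mature entries in the RefSeq table, which holds 724, has the seed of either. The stretch of the precursor from the start of the 5p arm to the end of the 3p arm (chr3:29813182-29813240, plus strand) shows both arms in capitals and the 16 bases of the loop side between them in lower case.
precursor stretch: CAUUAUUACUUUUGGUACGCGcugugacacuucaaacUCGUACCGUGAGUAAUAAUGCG
miR-126b lies on the opposite strand at chr3:29813177-29813198 and is antisense to 17 bases of the 5p arm. Its sequence is printed for that overlap, with the seed in capitals.
miR-126b: uACCAAAAguaauaaugugcug
miR-126b was not analysed here. The sources used here do not state whether reads were counted by strand, so whether any of its reads entered the counts of the 5p arm is not known.

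Total counts per library were 13088233 to 13973950 in OIR P29, 12694068 to 15260603 in OIR P14 and 11808893 to 12568341 in sham P14. TMM factors, which correct library size for composition, were 1.01 to 1.09 in OIR P29, 0.847 to 0.982 in OIR P14 and 0.996 to 1.06 in sham P14. Levels below are CPM, counts scaled to library size after this correction over all 9 libraries. For the tissue label, the summed level of 7 miRNAs typical of retina, among them miR-182 of photoreceptors, was 660318 to 716662 CPM in OIR P29, 775708 to 925509 CPM in OIR P14 and 691788 to 742429 CPM in sham P14.

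Retinas of OIR P14 and sham P14 rats were set against each other to ask what differs between retinopathy and control in animals of equal age. In OIR P14 the 3p and 5p arms of miR-126a fell, by log2 folds of -1.63 and -1.45. miR-126a-3p was counted 435, 546 and 806 times in OIR P14 libraries 11, 12 and 38, against 1674, 1989 and 1760 times in sham P14 libraries 25, 27 and 51. As levels, that was 33.7, 41.7 and 64.6 CPM in OIR P14, against 142, 149 and 140 CPM in sham P14. The highest OIR P14 library stood below the lowest sham P14 library by a wide margin, and library 38 was the highest of its group.

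miR-126a-5p was counted 1697, 2394 and 3092 times in the same OIR P14 libraries, against 5667, 7655 and 5991 times in the sham P14 libraries. Its levels were 131, 183 and 248 CPM in OIR P14, against 482, 574 and 475 CPM in sham P14. The groups did not overlap for this arm either, and the order of the OIR P14 libraries was that of the 3p arm. Set against the sham P14 mean, the 3p arm stood at 23.4%, 29.0% and 45.0% in OIR P14 libraries 11, 12 and 38. The 5p arm stood at 25.7%, 35.8% and 48.6%.

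The mean level of miR-126a-3p was 46.7 ± 16.1 CPM (SD, n = 3) in OIR P14 and 144 ± 4.98 CPM (SD, n = 3) in sham P14. Its log2 fold was -1.63 ± 0.21 SE (edgeR quasi-likelihood test, adjusted p = 0.00651). For miR-126a-5p it was 187 ± 58.5 CPM (SD, n = 3) in OIR P14 and 510 ± 55.4 CPM (SD, n = 3) in sham P14, and the log2 fold was -1.45 ± 0.20 SE (edgeR adjusted p = 0.00748). Of the 415 miRNAs tested, 7 were called at adjusted p under 0.05 (1.69%), all lower, while 8.92% had OIR P14 libraries that all lay below the sham P14 libraries. By p-value the arms ranked 2 and 3 among the 415, and by fold 3 and 5 from the lowest. These were bulk retinas, in which fewer cells of a type and less RNA per cell cannot be told apart.

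Both arms lost the call, though not the fold, when sham P14 library 27 was left out (log2 folds -1.62 for 3p and -1.38 for 5p, edgeR adjusted p = 0.0622 for each) or sham P14 library 51 (-1.63 and -1.48, 0.0517 for each). Over 14 alternatives the adjusted p ran from 4.04e-13 to 0.0622 for 3p and from 7.24e-11 to 0.0622 for 5p, with edgeR, DESeq2, limma or in the authors' deposited table.

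**Figure D1:**
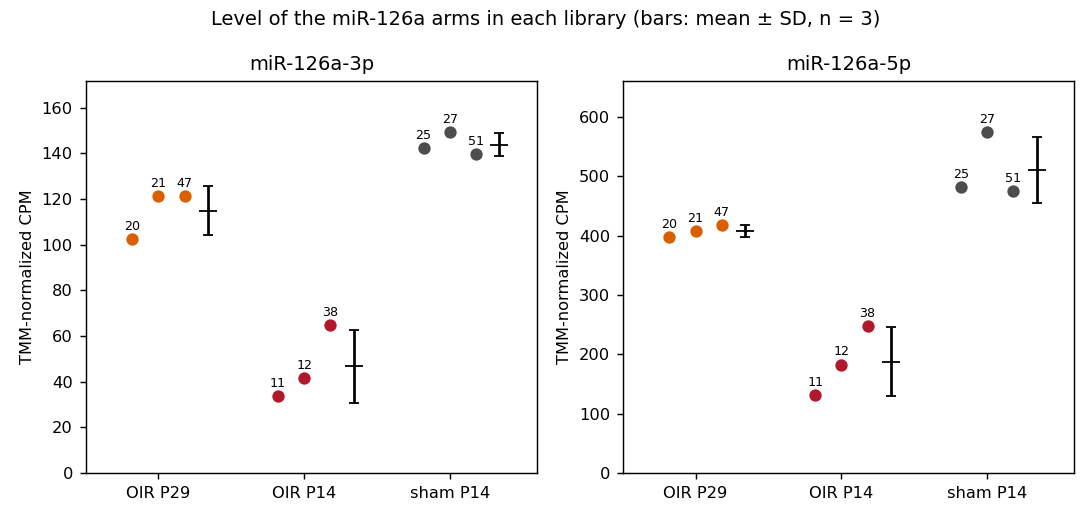
TMM-normalized CPM (vertical axes, from 0) of miR-126a-3p (left) and miR-126a-5p (right) in each library, labelled by its code; black bars are the mean ± SD of the 3 libraries. In both panels the OIR P14 libraries lie lowest, at 33.7 to 64.6 CPM for 3p and 131 to 248 CPM for 5p, and the OIR P29 libraries lie between them and the sham P14 libraries.

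Setting OIR P29 against OIR P14 asked what differs later in the model, where the animals are also older. Both arms rose. miR-126a-3p had 1358, 1731 and 1852 counts in OIR P29 libraries 20, 21 and 47, which is 102, 121 and 121 CPM, against the 33.7 to 64.6 CPM of OIR P14. miR-126a-5p had 5270, 5819 and 6384 counts, which is 397, 407 and 417 CPM, against 131 to 248 CPM in OIR P14. The groups did not overlap for either arm, and the OIR P29 libraries lay closer together than the OIR P14 libraries.

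The 3p arm had a mean of 115 ± 10.8 CPM (SD, n = 3) in OIR P29 and 46.7 ± 16.1 CPM (SD, n = 3) in OIR P14, and its log2 fold was 1.26 ± 0.21 SE (edgeR adjusted p = 0.00221). The 5p arm had a mean of 407 ± 9.995 CPM (SD, n = 3) in OIR P29 and 187 ± 58.5 CPM (SD, n = 3) in OIR P14, and its log2 fold was 1.08 ± 0.19 SE (edgeR adjusted p = 0.00279). Here edgeR called 198 of 424 miRNAs (46.7%), 22.9% higher and 23.8% lower, so a call was common and the arms' calls stand against that background. They ranked 75 and 85 by p-value and 26 and 35 by fold from the highest. In 32.1% of the miRNAs tested, every OIR P29 library lay above every OIR P14 library. This comparison shares its OIR P14 libraries with the one above, so a low value in those libraries enters both.

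A further comparison, of OIR P29 with sham P14, sets the later level beside the control level of the younger age. Age and disease state differ together in it and cannot be told apart. The 3p arm averaged 115 ± 10.8 CPM in OIR P29 and 144 ± 4.98 CPM in sham P14, and the 5p arm 407 ± 9.995 CPM in OIR P29 and 510 ± 55.4 CPM in sham P14 (SD, n = 3 each). As single libraries, OIR P29 stood at 71.3%, 84.3% and 84.3% of the sham P14 mean for 3p, and at 77.9%, 79.8% and 81.8% for 5p. For each arm the highest OIR P29 library was below the lowest sham P14 library, as it was for 26.6% of the miRNAs tested.

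The log2 folds were -0.35 ± 0.11 SE for 3p (edgeR adjusted p = 0.0341) and -0.36 ± 0.11 SE for 5p (edgeR adjusted p = 0.0300), in a fit that called 171 of 425 miRNAs (40.2%), 21.9% of them lower and 18.4% higher as shares of all tested. Both calls were lost with all 9 libraries in 1 edgeR fit (log2 folds -0.32 for 3p and -0.33 for 5p, adjusted p = 0.210 and 0.185) and with library totals alone (-0.28 and -0.29, 0.111 and 0.0852). Leaving out 1 library ended the call of the 3p arm in 5 of 6 cases (all but sham P14 library 51) with edgeR adjusted p of 0.0606 to 0.1497, and that of the 5p arm in 4 of 6 (OIR P29 libraries 20, 21 and 47 and sham P14 library 27), with 0.0556 to 0.175. In order of level, OIR P14 was lowest for both arms and clear of the other groups, while the difference between OIR P29 and sham P14 kept its direction and lost its call under these settings.

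**Figure D2:**
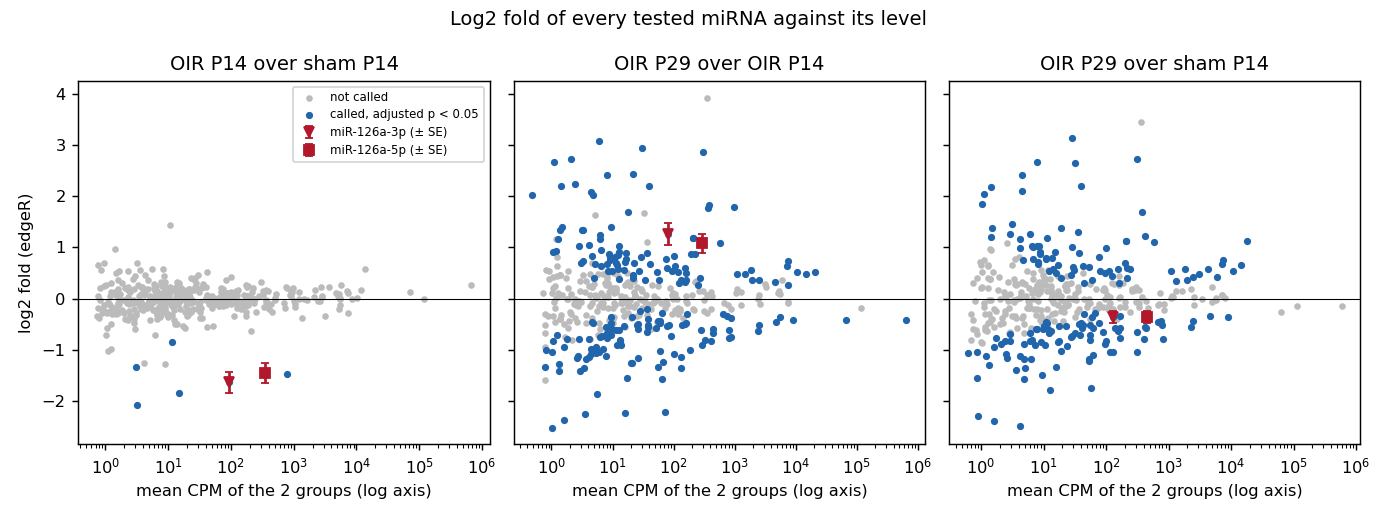
Log2 fold of each tested miRNA (vertical axes) against the mean CPM of the 2 groups (horizontal log axes) in the 3 comparisons; blue points passed adjusted p under 0.05, and the red triangle and square are miR-126a-3p and miR-126a-5p with their SE. The arms stand apart from most miRNAs in the left panel (log2 folds -1.63 and -1.45), lie among many other called miRNAs in the middle panel (1.26 and 1.08), and near the main cloud in the right panel (-0.35 and -0.36).

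The arm ratio, the count of miR-126a-5p over that of miR-126a-3p in a library, does not depend on library size or composition. The ratio sets 2 different sequences of 21 and 22 bases side by side, whose capture in library preparation may differ, so it is read between groups and not as an absolute ratio of molecules. In every library the 5p arm had more reads. The ratio was 3.88, 3.36 and 3.45 in OIR P29 libraries 20, 21 and 47, it was 3.90, 4.38 and 3.84 in OIR P14 libraries 11, 12 and 38, and it was 3.39, 3.85 and 3.40 in sham P14 libraries 25, 27 and 51. The ranges overlapped between all 3 groups.

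The ratio averaged 3.56 ± 0.278 in OIR P29, 4.04 ± 0.300 in OIR P14 and 3.55 ± 0.262 in sham P14 (SD, n = 3 each). An exact permutation test over the 3 groups, on the log2 ratio and over 1680 assignments of the libraries, gave p = 0.175, where 0.00357 is the smallest p it can give. limma was fitted to the log2 ratio of the 123 miRNA names with both arms counted. The log2 ratio of miR-126a was higher in OIR P14 than in sham P14 by 0.19 (95% interval -0.10 to 0.48, limma adjusted p = 0.824). It was lower in OIR P29 than in OIR P14 by a change of -0.18 (95% interval -0.47 to 0.11, limma adjusted p = 0.435), and OIR P29 minus sham P14 was 0.01 (95% interval -0.28 to 0.29, limma adjusted p = 0.969). Of the 3 differences, 0 passed the test, and the intervals leave room for differences up to their bounds.

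Across all 123 pairs, limma called 0 arm ratios between OIR P14 and sham P14 (0.00%; 2 had an unadjusted p under 0.05). It called 21 between OIR P29 and OIR P14 (17.1%) and 17 between OIR P29 and sham P14 (13.8%), and miR-126a was not among them. Of the pairs called, the largest changes between OIR P29 and OIR P14 were in miR-29b (log2 ratio changed by -1.62), miR-376c (1.58) and miR-412 (1.52). Between OIR P29 and sham P14 they were in miR-412 (1.69), miR-770 (1.53) and miR-29b (-1.40). By size of change miR-126a ranked 46 of 123 for OIR P14 against sham P14 and 80 for OIR P29 against OIR P14, and its change was the smallest of the 123 for OIR P29 against sham P14.

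**Figure D3:**
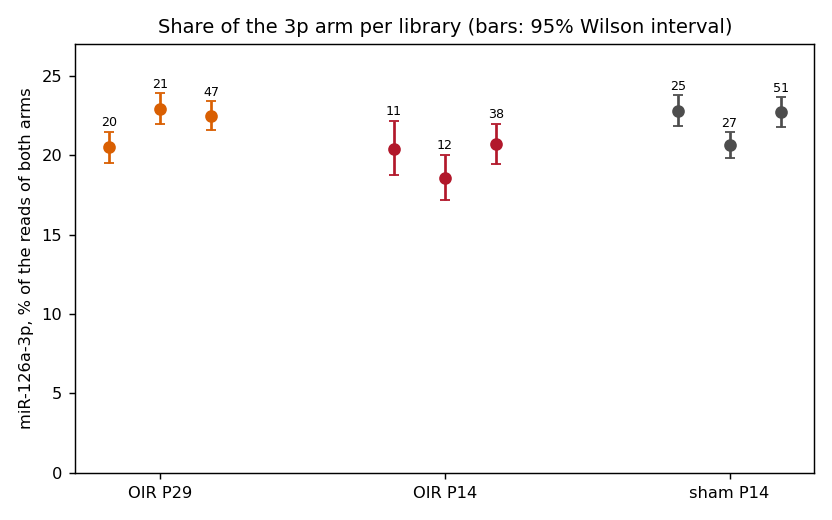
Share of miR-126a-3p among the reads of both arms (vertical axis, percent, from 0) in each library, labelled by its code, with its 95% Wilson interval for counting error only. The shares run from 20.5% to 22.9% in OIR P29, 18.6% to 20.7% in OIR P14 and 20.6% to 22.8% in sham P14, so the groups overlap.

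As a share of the reads of both arms, miR-126a-3p made up 20.5%, 22.9% and 22.5% in the OIR P29 libraries, then 20.4%, 18.6% and 20.7% in the OIR P14 libraries, and 22.8%, 20.6% and 22.7% in the sham P14 libraries. The library with the fewest reads of both arms (OIR P14 library 11, with 2132) had a 95% Wilson interval of 18.7% to 22.2%. Its total count, 15260603, was the highest of the 9 libraries. The shares of all libraries ran from 18.6% to 22.9%. Such intervals cover counting error only, since reads are not independent molecules. Some libraries of 1 group differed by more than that error: sham P14 library 27 had an interval of 19.8% to 21.4%, below that of library 25, which was 21.9% to 23.8%.

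**Figure D4:**
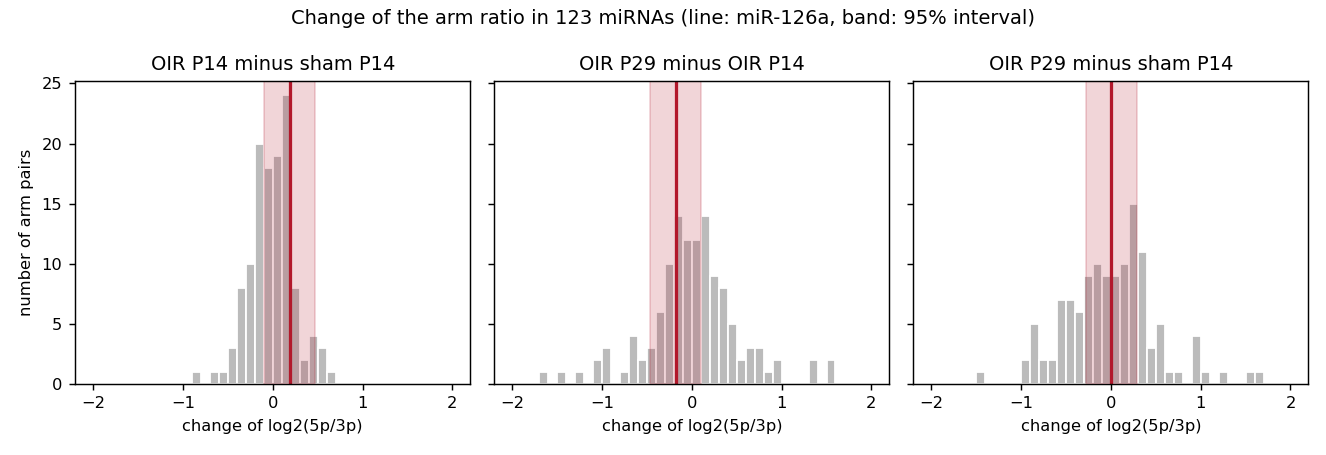
Number of arm pairs (vertical axis) by the change of their log2 ratio of 5p to 3p counts (horizontal axes) in the 3 comparisons, over 123 miRNA names; the red line is miR-126a and the pink band its 95% interval from limma. The line stands at 0.19, -0.18 and 0.01, inside the bulk of the pairs, and each band includes 0.

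Within groups, the arms moved together: in each of the 3 groups the 2 arms ranked the libraries in the same order by CPM, with OIR P29 libraries 21 and 47 almost level for 3p. The spread was widest in OIR P14, where the coefficient of variation of the level was 34.5% for 3p and 31.2% for 5p, against a median of 9.14% over the 274 miRNAs with a mean count of at least 100. In that group 6 of the 274 had a wider spread than the 3p arm, among them miR-143-3p (38.6%) and miR-145-5p (54.5%). The spread of the 3p and 5p arms was 9.39% and 2.45% in OIR P29 (median 7.52%) and 3.47% and 10.9% in sham P14 (median 11.5%). Leaving out OIR P14 library 38, the highest of its group, moved the log2 folds against sham P14 to -1.92 for 3p and -1.69 for 5p, and leaving out library 11, the lowest, moved them to -1.44 and -1.25.

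The profiles nearest to miR-126a were those of miR-143 and miR-145, a cluster of vascular smooth muscle cells and pericytes, the cells that wrap vessels. Nearness was the root mean square difference of log2 CPM over the 9 libraries, each profile centred on its own mean, from the mean of the 2 arms, among 420 other miRNAs. The arms differed from each other by 0.122 on this scale, and the median miRNA differed from them by 0.768. The nearest were miR-145-3p (0.248), miR-145-5p (0.276), miR-143-3p (0.323), miR-466c-5p (0.447) and miR-195-5p (0.470), the last a member of the miR-15/16 seed family. These measures are descriptions, and all 9 libraries enter each. Of these 5, 0 shared a seed with either arm, and the mature sequences of the 3 nearest, with the seed in capitals, show how unlike they are.
miR-145-3p: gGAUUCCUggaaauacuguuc
miR-145-5p: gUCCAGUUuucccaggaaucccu
miR-143-3p: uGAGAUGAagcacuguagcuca
They are encoded on the minus strand of chromosome 18 of GRCr8, at chr18:57369997-57370017, chr18:57370033-57370055 and chr18:57371373-57371394 in the same order.

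miR-143-3p, the most abundant of the 5, stood at 1523, 1541 and 1475 CPM in OIR P29 libraries 20, 21 and 47, then 294, 375 and 611 CPM in OIR P14 libraries 11, 12 and 38, and 1118, 1264 and 1116 CPM in sham P14 libraries 25, 27 and 51. The OIR P14 libraries were again lowest, in the order of the miR-126a arms, while the OIR P29 libraries stood above the sham P14 libraries. Its log2 fold of OIR P29 over sham P14 was 0.35 ± 0.09 SE (edgeR adjusted p = 0.0169), in the other direction from the arms of miR-126a. miR-145-3p fell in OIR P14 against sham P14 (log2 fold -1.33 ± 0.25 SE, edgeR adjusted p = 0.0291) and rose in OIR P29 against OIR P14 (1.35 ± 0.28, 0.00574). miR-145-5p had a log2 fold of -1.28 ± 0.33 SE in OIR P14 that did not pass (edgeR adjusted p = 0.133) and rose in OIR P29 against OIR P14 (1.40 ± 0.31, 0.00695). miR-466c-5p, at 0.542 to 1.65 CPM over all libraries, was called in no comparison. miR-195-5p had a log2 fold of -0.49 ± 0.18 SE in OIR P14 (edgeR adjusted p = 0.392) and rose in OIR P29 against OIR P14 (0.89 ± 0.16, 0.00305).

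The count of both miR-126a arms over that of miR-143-3p, a ratio chosen after these values were seen, was lowest in OIR P29. It was 0.328, 0.343 and 0.365 in OIR P29, then 0.562, 0.598 and 0.512 in OIR P14, and 0.558, 0.572 and 0.551 in sham P14. OIR P14 spanned the range of sham P14, and the OIR P29 libraries lay below both. On the log2 scale the difference was -0.01 for OIR P14 minus sham P14 (2-sided exact permutation test, p = 0.9), -0.69 for OIR P29 minus OIR P14 (p = 0.1) and -0.70 for OIR P29 minus sham P14 (p = 0.1), where 3 libraries against 3 cannot give a p below 0.1. miR-143-3p was picked for nearness to the arms over these same libraries, which by itself favours a ratio that differs little between groups. These p-values therefore describe the ratio and are no test of a shared change.

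**Figure D5:**
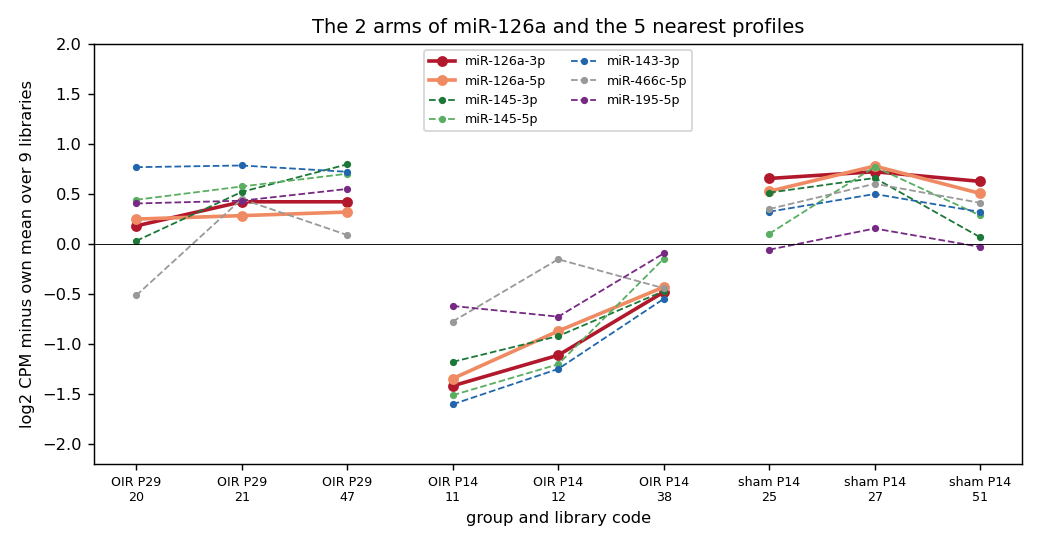
Log2 CPM of the 2 arms of miR-126a (solid lines) and of the 5 nearest miRNAs (dashed lines), each minus its own mean over the 9 libraries (vertical axis), by group and library code (horizontal axis); lines join libraries of a group only to guide the eye. All 7 profiles are lower in the OIR P14 libraries than in most others, and library 38 is the highest of that group for both arms of miR-126a, for miR-143-3p and for both arms of miR-145.

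Among 11 endothelial-enriched miRNAs on a list drawn from general knowledge, 10 were in the tables (miR-126b was not analysed here) and 9 were tested between OIR P14 and sham P14. The list was chosen with earlier results of these data known. Of the 9, 2 fell, the 2 arms of miR-126a themselves, and 7 were not called, beside 1.69% lower and 0.00% higher over all miRNAs. Since few miRNAs of any kind were called here, the 7 without a call do not set the list apart. The list's median log2 fold, which includes both arms, was -0.21, beside -0.03 over all miRNAs tested. Its summed level was 680 to 811 CPM in OIR P14 and 1106 to 1216 CPM in sham P14, and both arms of miR-126a are part of that sum. Without the arms, the other 8 members summed to 498 to 533 CPM in OIR P14 and 482 to 496 CPM in sham P14, so that sum was not lower in OIR P14. The sum says little of scarce members. One of these, miR-10b-5p, named after its values were seen, had a log2 fold of -1.25 ± 0.66 SE (edgeR adjusted p = 0.565). It stood at 0.534 to 6.10 CPM in OIR P14 and 5.10 to 6.58 CPM in sham P14. miR-222-3p, which restrains endothelial growth, had a log2 fold of -0.25 ± 0.19 SE (edgeR adjusted p = 0.664) and miR-23a-3p, of a cluster that supports vessel growth, 0.17 ± 0.14 (0.713).

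Between OIR P29 and OIR P14, 7 of the 10 tested rose, 0 fell and 3 were not called, beside 22.9% of all miRNAs higher. The 7 include both arms of miR-126a, which also enter the median of the list. The median log2 fold was 0.79, beside -0.01 over all miRNAs, and the summed level was 1034 to 1188 CPM in OIR P29 and 680 to 811 CPM in OIR P14. Without the arms it was 535 to 649 CPM in OIR P29 and 498 to 533 CPM in OIR P14. miR-222-3p rose by a log2 fold of 0.47 ± 0.12 SE (edgeR adjusted p = 0.0140) and miR-23a-3p by 0.80 ± 0.15 (0.00407). Between OIR P29 and sham P14, 4 of 10 were higher and 2 lower, the 2 being the arms of miR-126a, beside 18.4% higher and 21.9% lower over all miRNAs tested. The 4 were miR-10a-5p (log2 fold 1.20 ± 0.42 SE, edgeR adjusted p = 0.0470), miR-23a-3p (0.999 ± 0.17, 0.00224), miR-24-3p (0.55 ± 0.17, 0.0278) and miR-27a-3p (0.80 ± 0.10, 0.000667), of which miR-10a-5p, miR-24-3p and miR-27a-3p are named for that count, after their values were seen. miR-10a-5p was scarce, at 1.40 to 2.72 CPM in OIR P29 and 0.425 to 1.43 CPM in sham P14, and these ranges overlapped.

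A second list held 21 miRNAs linked to vessel growth, with 20 tested. Between OIR P14 and sham P14, 1 fell (miR-150-5p, which is also on the leukocyte list below), 0 rose and 19 were not called, with a median log2 fold of 0.04, beside 1.69% lower over all miRNAs. Between OIR P29 and OIR P14, 4 rose and 9 fell, with a median log2 fold of -0.26, beside 22.9% higher and 23.8% lower over all miRNAs. Among the risers was miR-210-3p, which hypoxia induces (0.88 ± 0.08 SE, edgeR adjusted p = 0.000125), and among the fallers was miR-20a-5p of the miR-17 to 92 cluster (-1.25 ± 0.21, 0.00237). In OIR P14 against sham P14, at equal age, miR-210-3p had a log2 fold of -0.33 ± 0.10 SE and was not called (edgeR adjusted p = 0.208). Between OIR P29 and sham P14, 5 were higher, 10 lower and 5 not called, beside 18.4% higher and 21.9% lower over all miRNAs.

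Markers of other vessel and blood cells are given beside miR-126a, and their part in its change was not tested. Over all miRNAs, 1.69% were called lower in OIR P14 against sham P14 and 22.9% higher in OIR P29 against OIR P14. Of 10 mural cell and fibroblast miRNAs, 6 were tested: 2 fell in OIR P14 against sham P14 (miR-143-3p and miR-145-3p), and 4 rose in OIR P29 against OIR P14. Their summed level, most of it miR-143-3p, was 1527 to 1590 CPM in OIR P29, 323 to 656 CPM in OIR P14 and 1168 to 1317 CPM in sham P14. OIR P14 lay below both other groups in this sum. Of 4 erythroid miRNAs, 2 were tested at P14 and 1 fell (miR-451-5p, log2 fold -2.07 ± 0.31 SE, edgeR adjusted p = 0.0105), and 3 of 4 rose in OIR P29 against OIR P14. The erythroid sum, most of it miR-486, was 1075 to 1171 CPM in OIR P29, 963 to 1050 CPM in OIR P14 and 1022 to 1168 CPM in sham P14, and OIR P14 overlapped sham P14. Of 8 leukocyte miRNAs, 7 were tested at P14 and 1 fell (miR-150-5p, log2 fold -1.83 ± 0.20 SE, edgeR adjusted p = 0.00357), and 2 of 8 rose in OIR P29 against OIR P14, near the share over all miRNAs. The leukocyte sum was 355 to 402 CPM in OIR P29, 266 to 321 CPM in OIR P14 and 280 to 373 CPM in sham P14, and OIR P14 again overlapped sham P14. Between OIR P29 and sham P14, 1 of 6 mural miRNAs was higher and 2 lower, 1 of 4 erythroid miRNAs was higher, and 2 of 7 leukocyte miRNAs were higher, beside 18.4% higher and 21.9% lower over all miRNAs. Of the 7 retina miRNAs, 7 were not called between OIR P14 and sham P14 by edgeR. In OIR P29 against OIR P14, 3 rose and 3 fell, beside 22.9% higher and 23.8% lower over all miRNAs. Against sham P14, 4 of the 7 were higher in OIR P29 and 1 was lower, beside 18.4% and 21.9% over all miRNAs. In the tables, 0 members of these lists were at 0 in every library of a group.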

How the data were processed

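Mature miRNAs of 9 retinal small RNA libraries were read as 50 bp reads, per the labels' protocols. The authors deposited 2 tables of read counts per mature miRNA, 1 per comparison, with a log2 fold and a false discovery rate (an adjusted p-value) of their own, per the file headers. Per the submitters' processing notes, limma was used, with no version named. Trimming, alignment, counting and build: not given in the sources used here. All 3 OIR P14 libraries are repeated across the tables, and 1395 of 1395 of their counts are identical. Column names are library codes only: codes in both tables are OIR P14 and the others were assigned by the groups each table is named for.

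edgeR 4.0.16 (R 4.3.3) was run on the 6 libraries of a comparison at a time (TMM, filterByExpr with a minimum count of 10 and minimum total of 15, quasi-likelihood F test, Benjamini-Hochberg adjustment over all miRNAs tested). The filter left out 50, 41 and 40 miRNAs for OIR P14 against sham P14, OIR P29 against OIR P14 and OIR P29 against sham P14. Both arms passed it in each. Arm ratios, log2 of (5p + 0.5) over (3p + 0.5), were fitted with limma 3.58.1 for names with a mean count of at least 10 in each arm. The steps were tested on simulated data with the same spread for every miRNA and group. The wide spread of the arms in OIR P14 (34.5% for 3p and 31.2% for 5p) was therefore not simulated. Named miRNAs were the 2 arms, the 5 nearest profiles, called list members (at most 4 a list, by smallest p at P14) and the 3 largest called arm changes. DESeq2 1.42.0, limma-voom, other scalings, no filter and left-out libraries were alternatives. The members and lists were chosen with earlier results of these data known. RefSeq matched 423 of 465 names to a sequence.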

Additional observations from a re-analysis of the deposited data

How the results depend on the processing

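In OIR P14 against sham P14 the number of miRNAs called was 7, and 13 with DESeq2, and with 1 library left out it ran from 1 to 7 (1 each without sham P14 library 27 or 51). The log2 folds with 1 library left out ran from -1.92 to -1.44 for miR-126a-3p and from -1.69 to -1.25 for miR-126a-5p, with 2 of 6 calls lost for each. The other 8 settings kept both calls. In OIR P29 against OIR P14 both arms were called in 14 of 14 settings, with log2 folds of 1.11 to 1.53 and 0.92 to 1.32. In OIR P29 against sham P14 the log2 folds with 1 library left out ran from -0.40 to -0.28 for miR-126a-3p and from -0.43 to -0.22 for miR-126a-5p. The calls were also lost with library totals alone (-0.28 and -0.29) and with all 9 libraries in 1 edgeR fit (-0.32 and -0.33), and the cause was not tested. The arm ratio was called in none of 27 settings over the 3 comparisons. Its change for OIR P29 against sham P14 ran from -0.0563 to 0.0670 with 1 library left out and changed sign in 3 of 6 cases. On the linear scale the exact permutation test over 3 groups gave p = 0.157. No paired analysis was possible because the columns carry library codes and not the replicate numbers of the labels. Left-out fits assume that a group of 2 libraries varies like the others. Depth limited neither arm, with at least 435 counts in each library.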
